A study of Homo sapiens with 12 samples.

Results

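The 44 genes described here encode proteins of focal adhesions and the proteins that link these adhesions to actin. They were chosen by symbol for what is known of their products, with no threshold on a measured value but with earlier results of these data known. All 44 were among the 26485 genes of the count and RPKM tables, and all 44 were among the 14732 that passed the filter on low counts. The RNA came from spheroids of DU145, a long-established line of human prostate cancer cells, in 3 derivatives with 4 biological replicates each and 12 samples in all. In all 3 lines ITGA2, the gene of the α2 integrin subunit, had been knocked out with Crispr/Cas9. DU145KO carried no further construct, DU145KO+α2 had been stably transfected with α2 integrin cDNA in the pAWneo2 vector, and DU145KO+vector had received the same vector without insert. DU145KO consisted of edited cells selected for GFP and for absence of α2 integrin from the surface, and the 2 transfected lines were kept under geneticin, which DU145KO was not. Spheroids of 8000 cells were grown for 72 hours in RPMI medium without serum. The design asks which of these genes differ when α2 integrin is put back (DU145KO+α2 against DU145KO+vector), when the same cells are set against the untransfected knock-out (DU145KO), and when the empty vector alone is set against the untransfected knock-out.

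Focal adhesions are assemblies of proteins that form on the cytoplasmic side of integrins bound to matrix. Talin and kindlin bind the tail of the β subunit and switch the integrin on, and talin, vinculin, parvin, filamin and α-actinin tie it to actin filaments. Paxillin, Cas and Crk proteins gather signalling enzymes at these sites, and RHOA, RAC1 and CDC42 with their kinases set the tension and growth of the actin network. α2β1 integrin, which contains the α2 subunit, is a receptor for collagen.

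The total count per sample lay between 13948734 and 19988111, so that 3 counts, the limit a count of 0 allows, correspond to 0.150 to 0.215 CPM, the count scaled to the TMM-normalized size of the library. ITGA2 averaged 305 CPM ± 33.5 (SD, n = 4) in DU145KO+α2, 17.6 ± 3.15 in DU145KO+vector and 20.7 ± 4.16 in DU145KO. Its log2 fold change was 4.11 between DU145KO+α2 and DU145KO+vector (adjusted p = 3.15e-09) and -0.23 between DU145KO+vector and DU145KO (adjusted p = 0.534). These p-values, like all adjusted p-values given here, come from edgeR's quasi-likelihood test with Benjamini-Hochberg adjustment over 14732 genes. Of 5 epithelial markers (KRT8, KRT18, KRT19, EPCAM and CDH1), none was at 0 in any line, and their summed level was 1211 to 1584 CPM in DU145KO, 860 to 1154 in DU145KO+α2 and 1142 to 1388 in DU145KO+vector. CDH1 was lowest in DU145KO+α2 and passed the test against both other lines, EPCAM was lower in both transfected lines than in DU145KO, and KRT18 was lower in DU145KO+α2 than in DU145KO. With each of the 12 samples left out in turn, the call of KRT18 was kept in 4 fits. With the replicate number as a block, 3 of the 5 instead of 1 were lower in DU145KO+α2 against DU145KO+vector, and 4 instead of 3 against DU145KO. Of all genes tested 13.7% and 12.4% were lower with the block in these comparisons, and 5.95% and 5.08% without it. The 6 fibroblast markers summed to 8.95 to 12.6 CPM, with LUM at 0 in every sample, DCN at no more than 1 count and PDGFRB, which was lower in DU145KO+α2 than in both other lines, at no more than 12 counts. The PDGFRB calls were kept in 6 of the 12 such fits against DU145KO+vector and in 4 against DU145KO. The 5 leukocyte markers summed to 50.7 to 85.8 CPM, most of it CD68, with PTPRC and CD3E at no more than 1 count. The 5 endothelial markers summed to 10.8 to 15.7 CPM in DU145KO+α2, 3.97 to 4.92 in DU145KO and 1.27 to 2.72 in DU145KO+vector, with CDH5 at 9.90, 1.27 and 0.154 CPM and VWF at no more than 4 counts in any sample. Of the 3 that were tested, CDH5 and KDR were higher in DU145KO+α2 than in DU145KO+vector (log2 fold change 5.92 and 1.14, adjusted p = 1.34e-08 and 0.0183). CDH5 was also higher in DU145KO+α2 than in DU145KO (2.96, adjusted p = 9.57e-07). In DU145KO+vector 1 of the endothelial markers was lower against DU145KO (1.84% of all genes), and 2 with the block (7.85% of all genes). The part of these markers in the differences below was not tested. All samples are cultures of derivatives of the DU145 line. Fewer cells with a transcript and less of this transcript per cell cannot be told apart in them.

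Replicates are numbered 1 to 4 in every line, and equally numbered samples deviated together across genes. For the 44 genes, the value of each test with the replicate number as a block is therefore given wherever it changed a call, and for the other lists the counts with the block are given.

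A promoter sequence is shown for each gene that passed the test between lines and has an entry in the RefSeq table (build GRCh38.p14), so that the sequence can be read beside the levels. Of the 44 genes 39 had an entry, with 78 windows of 250 bases that end at a transcription start, and FERMT1, MYL9, PARVA, RAC1 and TNS4 had none. The letters run 5′ to 3′ on the strand of the gene. Capitals mark a GC box, GGGCGG on either strand, which Sp1-type factors bind, and in TGFB1I1 also a CArG box, the site of serum response factor. TGFB1I1 has further windows at other starts, and the one with the CArG box is shown.
TLN1, chr9:35732196-35732445, minus strand: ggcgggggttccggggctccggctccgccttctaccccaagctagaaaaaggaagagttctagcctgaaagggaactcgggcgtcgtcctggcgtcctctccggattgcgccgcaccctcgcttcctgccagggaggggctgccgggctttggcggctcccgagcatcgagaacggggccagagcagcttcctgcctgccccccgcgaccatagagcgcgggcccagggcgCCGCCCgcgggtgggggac
TLN2, chr15:62390300-62390549, plus strand: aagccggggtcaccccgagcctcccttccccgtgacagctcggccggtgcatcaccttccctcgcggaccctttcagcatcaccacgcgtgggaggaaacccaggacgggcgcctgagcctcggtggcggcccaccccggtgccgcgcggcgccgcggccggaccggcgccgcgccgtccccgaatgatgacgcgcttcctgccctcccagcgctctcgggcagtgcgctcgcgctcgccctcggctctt
TGFB1I1, chr16:31472955-31473204, plus strand: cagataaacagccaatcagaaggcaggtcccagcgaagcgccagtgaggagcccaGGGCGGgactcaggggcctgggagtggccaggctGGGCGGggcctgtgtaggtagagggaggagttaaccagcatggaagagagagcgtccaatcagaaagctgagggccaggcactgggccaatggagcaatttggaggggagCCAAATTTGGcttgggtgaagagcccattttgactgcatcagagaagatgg
PDLIM7, chr5:177497605-177497854, minus strand: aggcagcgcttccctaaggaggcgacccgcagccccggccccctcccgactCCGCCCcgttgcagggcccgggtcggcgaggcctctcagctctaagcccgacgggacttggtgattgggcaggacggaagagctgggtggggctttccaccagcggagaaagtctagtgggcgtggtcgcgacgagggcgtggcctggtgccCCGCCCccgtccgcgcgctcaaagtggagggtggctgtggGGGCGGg
The talin 1 window holds 1 GC box, the PDLIM7 window 3 and the window of TGFB1I1 2, whereas the talin 2 window holds none. A GC box occurred in 60.3% of the 78 windows of these genes and in 42.6% of all 35116 windows of the table, and the median GC content was 65.2% and 58.0%. A CArG box was found in 6 of the 78 windows (7.69%, against 1.16% of all windows), in ACTN1, FLNA, LPP, MYLK, ROCK2 and TGFB1I1. The TEAD motif GGAATG was in 10 windows (12.8%, against 11.9% of all) and the AP-1 motif TGANTCA in 7 (8.97%, against 6.57%), each searched on both strands. A match describes these letters in this window and says nothing of binding.

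Per length of transcript the genes spanned a wide range of levels. The mean RPKM (the read count scaled by depth and by gene length) over the 12 samples was above 100 for 4 genes, between 10 and 100 for 28, between 1 and 10 for 8 and below 1 for 4. Their median was 25.7 RPKM against 8.11 over all genes tested. The order began with the GTPase RHOA at 213 RPKM, the GTPase RAC1 at 148, the non-muscle myosin heavy chain MYH9 at 131 and the crosslinker ACTN4 at 127. TLN1 (74.9), FLNA (72.9), ACTN1 (67.0) and the talin partner VCL (58.4) followed. It ended with TLN2 at 0.732, the tensin TNS4 at 0.445, the Cas protein NEDD9 at 0.370 and the tensin TNS1 at 0.108. Of the 43 pairs of neighbours in this order, 38 had ranges over the 12 samples that overlapped, so that most single ranks are not separated.

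**Figure D1:**
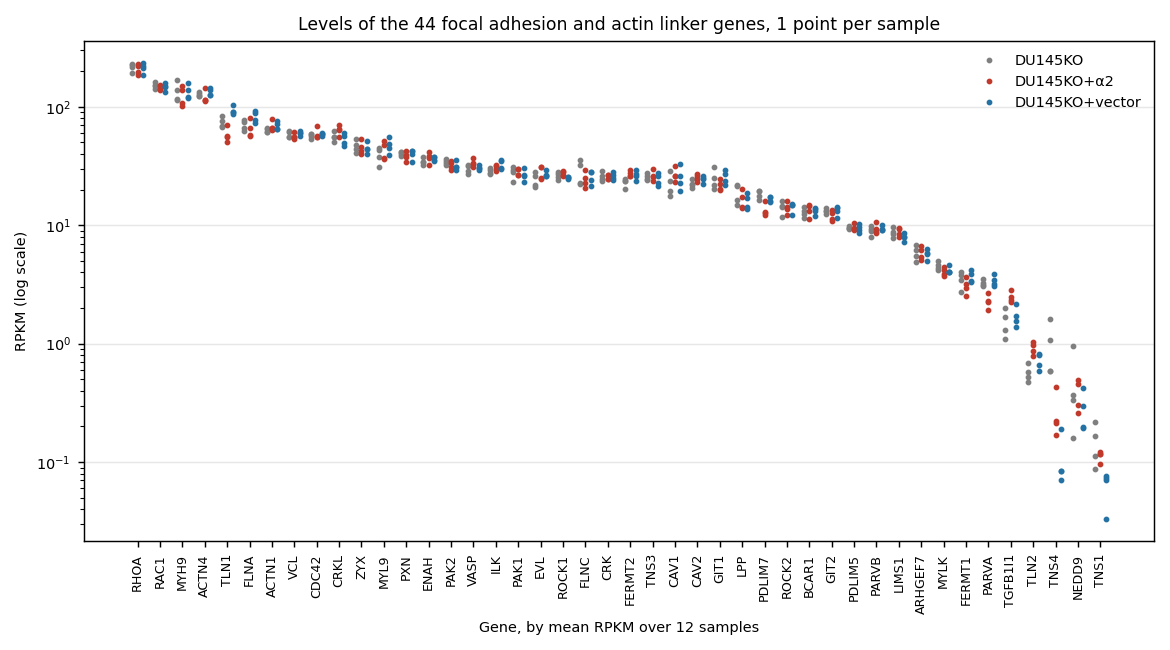
RPKM (log scale) of each of the 44 genes in each of the 12 samples, ordered by mean, with 1 point per sample coloured by line (DU145KO, DU145KO+α2 and DU145KO+vector). From RHOA down to FERMT1 the points of the 3 lines mostly lie on top of each other, while in TLN1, PARVA, TGFB1I1, TLN2, TNS4 and TNS1 the points of 1 line stand off in whole or in part.

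In some families 1 member was far more abundant than the others. In DU145KO, talin 1 was 133 ± 15.6 times as abundant as talin 2 on the RPKM scale, paxillin (PXN) 28.0 ± 7.49 times as abundant as its relative TGFB1I1 (Hic-5), the tensin TNS3 31.6 ± 13.8 times as abundant as TNS4, and kindlin 2 (FERMT2) 6.71 ± 1.46 times as abundant as kindlin 1 (FERMT1) (SD, n = 4 each). The Cas protein BCAR1 was 40.2 ± 23.9 times as abundant as NEDD9. Other families were closer, with an FLNA to FLNC ratio of 2.56 ± 0.365, a CRKL to CRK ratio of 2.17 ± 0.0631, an ENAH to VASP ratio of 1.16 ± 0.142 and a CAV1 to CAV2 ratio of 0.806 to 1.29. The talin ratio was 63.9 ± 6.58 in DU145KO+α2 and 132 ± 31.3 in DU145KO+vector, and the 4 ratios in DU145KO+α2 (55.4 to 71.4) lay below all 8 others (106 to 175). The ratio of paxillin to TGFB1I1 was 15.6 ± 1.69 in DU145KO+α2 and 23.8 ± 5.03 in DU145KO+vector, with values of 13.6 to 17.6 and 19.7 to 30.2. α-Parvin (PARVA) stood at 0.244 ± 0.0199 of β-parvin (PARVB) in DU145KO+α2, 0.363 ± 0.0359 in DU145KO+vector and 0.362 ± 0.0555 in DU145KO.

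Between DU145KO+α2 and DU145KO+vector, 3 of the 44 genes were lower (TLN1, PARVA and PDLIM7) and 0 were higher, which is 6.82% of the genes against 11.9% of all genes tested (5.96% higher and 5.95% lower). The median log2 fold change was 0.012 over the 44 genes and -0.0062 over all genes. The 95% interval of the fold change lay within 1.5-fold in either direction for 36 of the 44 genes and within 2-fold for 41. At an unadjusted p under 0.05 edgeR gave 5 higher and 4 lower, and after adjustment DESeq2 gave 0 and 4 (with FLNA) and limma 0 and 3. With the replicate block 5 were higher (TLN2, TGFB1I1, CRKL, TNS1 and TNS4) and 5 lower (FLNA and GIT1 besides the 3 above), 22.7% against 26.5% of all genes (12.9% higher and 13.7% lower). The values of DU145KO+α2 and DU145KO+vector did not overlap for 5 of the 44 genes (TLN1, PARVA, TGFB1I1, TNS1 and ROCK1), against 17.2% of all genes. A fold change above 2 together with the adjusted p was reached by 0 of the 44 genes, against 2.21% of all genes.

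Between DU145KO+α2 and DU145KO, 2 of the 44 genes were higher (TLN2 and TGFB1I1) and 4 lower (TLN1, PARVA, TNS4 and PDLIM7), 13.6% against 8.17% of all genes (3.09% higher and 5.08% lower). The median log2 fold change was -0.025 over the 44 genes and -0.0031 over all genes. With the block 4 were higher (FERMT2 and CRKL besides the 2 above) and 8 lower (LPP, FLNC, GIT2 and MYLK besides the 4 above), 27.3% against 22.3% of all genes (9.93% higher and 12.4% lower). The values did not overlap for 6 genes (TLN2, FERMT2, PARVA, TGFB1I1, TNS4 and PDLIM7), against 12.9% of all genes, and TNS4 alone also had a fold change above 2, as 2.1% of all genes did. Between DU145KO+vector and DU145KO only TNS4 was called, lower in DU145KO+vector, and 0 genes were higher, 2.27% against 2.34% of all genes (0.496% higher and 1.84% lower). For this comparison edgeR gave 4 higher at an unadjusted p under 0.05, and DESeq2 and limma gave 0 higher after adjustment. With the block 4 were higher (TLN1, FERMT2, ILK and FLNA) and 3 lower (LPP, TNS1 and TNS4), 15.9% against 13.4% of all genes (5.59% higher and 7.85% lower). The values of TLN1, TNS1 and TNS4, 3 of the 44 genes, did not overlap, against 8.76% of all genes, and TNS4 also had a fold change above 2, as 0.835% of all genes did. The 3 comparisons share samples, so each gene's values are set side by side below and a shared direction is not counted as a further observation.

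**Figure D2:**
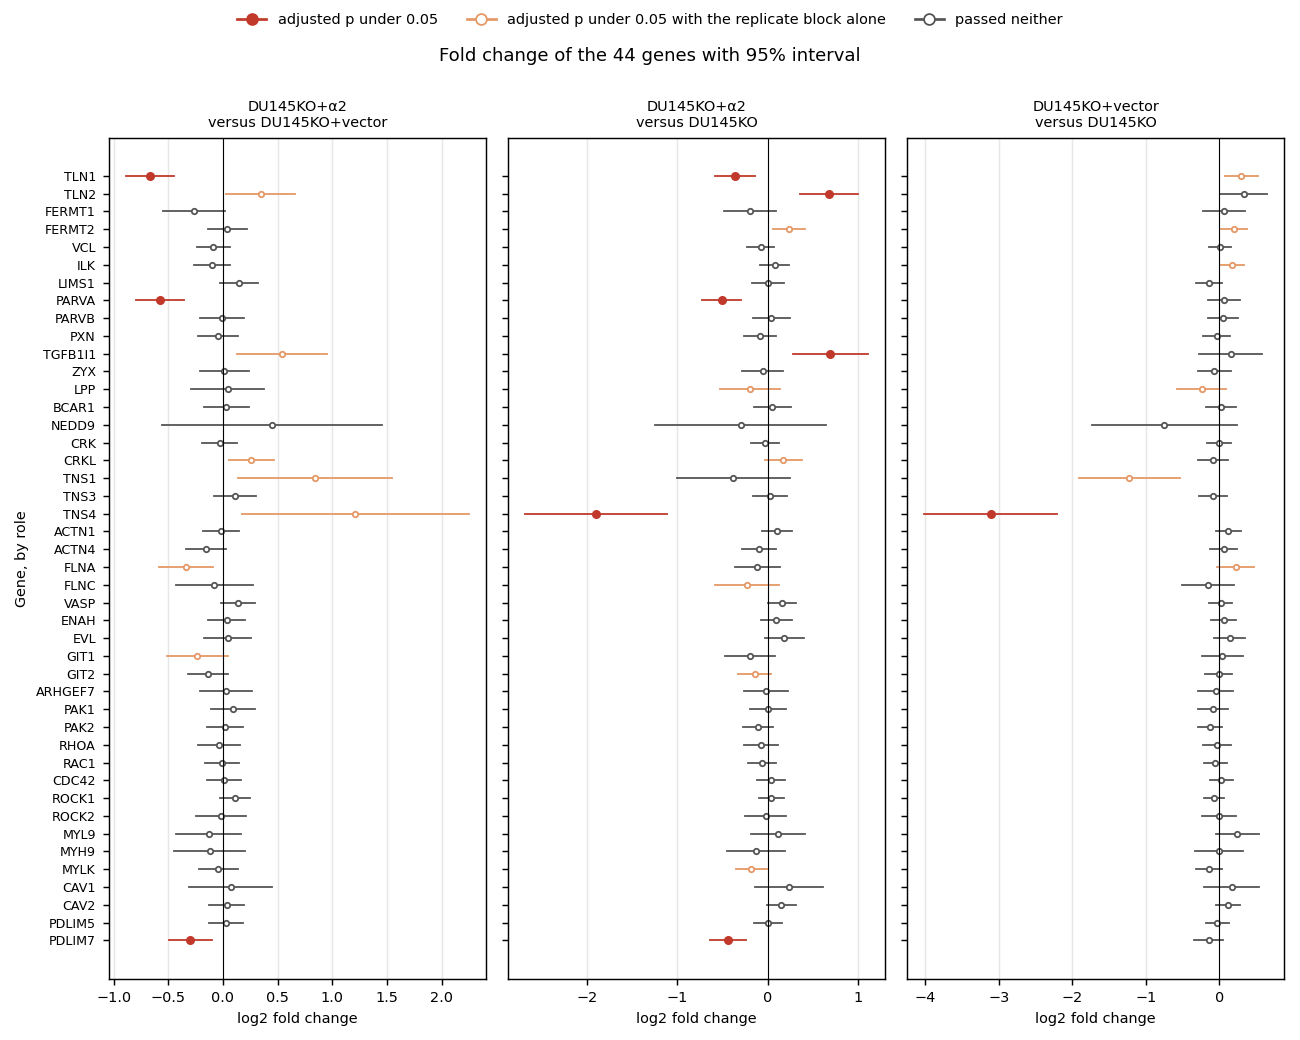
Log2 fold change of the 44 genes with its 95% interval from edgeR in each of the 3 comparisons, in order of role. Filled red points passed an adjusted p of 0.05, open orange points passed it with the replicate block alone and open grey points passed neither, and most genes lie close to 0 with TNS4 farthest from it in all 3 comparisons (1.21, -1.90 and -3.11).

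Of the integrin activators and their links to actin, the talins moved in opposite directions when DU145KO+α2 was set against DU145KO, and the kindlins and vinculin were not called. Talin 1 (TLN1), the main link between integrin tails and actin, was measured in replicates 1 to 4 at 463, 589, 486 and 427 CPM in DU145KO+α2, at 726, 865, 767 and 763 in DU145KO+vector and at 578, 714, 658 and 579.8 in DU145KO. All 4 samples of DU145KO+α2 lay below all 4 of DU145KO+vector, while replicate 2 of DU145KO+α2 lay within the range of DU145KO. The log2 fold change was -0.67 (SE 0.10, adjusted p = 0.000633) against DU145KO+vector and -0.36 (SE 0.10, adjusted p = 0.0407) against DU145KO. The first kept its call whichever of the 12 samples was left out, with values of -0.77 to -0.61. The second lost its call in 7 of the 12, without DU145KO replicate 2 or 3, DU145KO+α2 replicate 1, 3 or 4, or DU145KO+vector replicate 3 or 4, with adjusted p of 0.0521 to 0.141 and values of -0.36 to -0.30, whereas with the block its adjusted p was 4.52e-05. In DU145KO+vector talin 1 lay above DU145KO in all 4 numbered pairs, with a log2 fold change of 0.30 (SE 0.10, adjusted p = 0.160, and 0.000786 with the block).

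The gene of talin 1 lies on chromosome 9 (chr9:35696948-35732195, GRCh38), and the genes around it differed between the lines as well. Of the 40 nearest tested genes, 20 on each side over 2.89 Mb, 39 had a negative log2 fold change between DU145KO+α2 and DU145KO+vector, 29 of these passed the test, and their median was -0.58. Talin 1 lay 0.09 below this median, and 13 of the 40 neighbours lay below talin 1. Against DU145KO the neighbours' median was -0.28 with 12 called lower, and between DU145KO+vector and DU145KO it was 0.29 with 6 called higher. Talin 1 differed from these medians by -0.08 and 0.01. For the other 43 genes of the list the median of their own 35 to 40 neighbours lay between -0.08 and 0.07, between -0.14 and 0.10, and between -0.09 and 0.06 in the same 3 comparisons. The part of this regional difference in the talin 1 values was not tested.

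**Figure D3:**
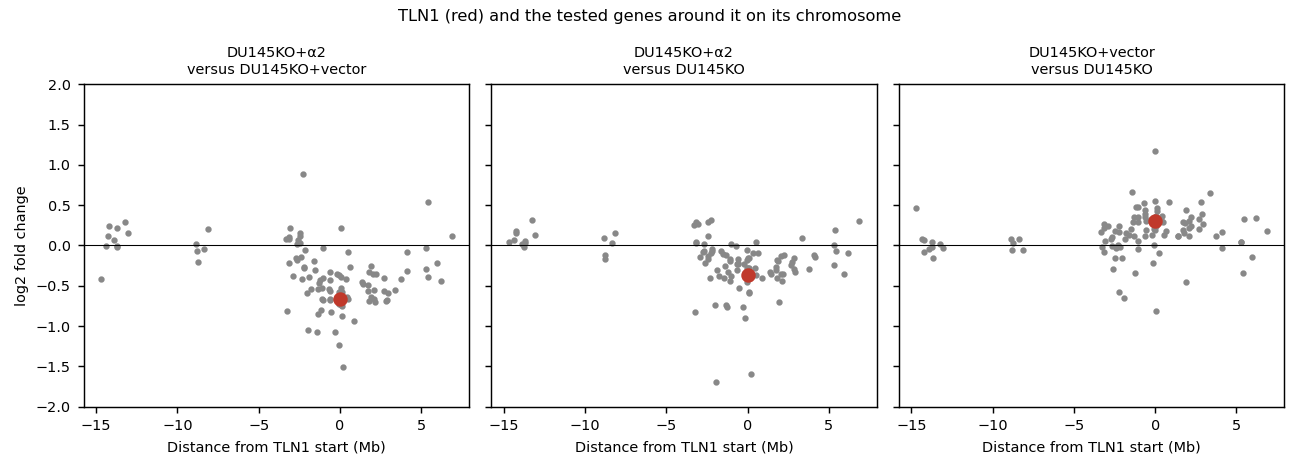
Log2 fold change of tested genes around TLN1 on chromosome 9 against their distance from its start in Mb, in each of the 3 comparisons. The genes shown lie from -14.7 to 6.87 Mb of this start, with TLN1 in red and each other gene in grey. TLN1 lies in the middle of its neighbours, whose median over the nearest 40 was -0.58, -0.28 and 0.29 from left to right.

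Talin 2 (TLN2), the less abundant paralogue with the same domains, was measured at 9.94, 11.4, 12.1 and 9.17 CPM in DU145KO+α2, at 9.42, 6.82, 9.49 and 7.71 in DU145KO+vector and at 5.56, 6.78, 8.11 and 6.21 in DU145KO. The samples of DU145KO+α2 lay above all of DU145KO, and those of DU145KO+vector lay between and overlapped with both. Against DU145KO the log2 fold change was 0.68 (SE 0.15, adjusted p = 0.00943), called in all 12 fits without 1 sample, and against DU145KO+vector it was 0.35 (SE 0.15, adjusted p = 0.155), which passed with the block (0.0335). Its 40 neighbours on chromosome 15 had medians of 0.08 and 0.05 in these comparisons. Kindlin 2 (FERMT2), which binds the β tail beside talin, was measured at 89.3, 89.7, 95.3 and 102 CPM in DU145KO+α2 and at 69.995, 81.8, 82.9 and 84.8 in DU145KO, without overlap. Its log2 fold change of 0.23 had an adjusted p of 0.108, and of 0.00223 with the block. FERMT2 was also called higher in DU145KO+vector than in DU145KO with the block alone (log2 fold change 0.19, adjusted p = 0.288 and 0.0173). FERMT1, the kindlin of epithelial cells, had log2 fold changes of -0.26, -0.20 and 0.07 in the 3 comparisons, and VCL had -0.09, -0.07 and 0.01 with 95% intervals between -0.24 and 0.16.

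In the complex of ILK, PINCH and parvin, which joins kindlin and paxillin to actin, α-parvin was lower in DU145KO+α2 and the other members were not called. PARVA was measured at 19.4, 23.4, 20.2 and 17.0 CPM in DU145KO+α2, at 26.7, 33.9, 30.6 and 28.2 in DU145KO+vector and at 28.6, 31.0, 27.2 and 27.4 in DU145KO. All 4 samples of DU145KO+α2 lay below all 8 others, which overlapped with each other. PARVA had a log2 fold change of -0.57 (SE 0.10, adjusted p = 0.00175) against DU145KO+vector and -0.51 (SE 0.10, adjusted p = 0.00517) against DU145KO, a decrease of 32.8% and 29.8%. Both were called in all 12 fits without 1 sample, with values of -0.66 to -0.50 and -0.60 to -0.44. Its neighbours on chromosome 11 had medians of -0.05 and -0.01, and 1 and 3 of the 40 lay below PARVA. PARVB had log2 fold changes of -0.01, 0.04 and 0.05, and LIMS1, which encodes PINCH1, of 0.15, 0.01 and -0.14. ILK had -0.10, 0.08 and 0.18, the last with an adjusted p of 0.286 and of 0.0433 with the block, and exons of TAF10 on the opposite strand cover 70.7% of its exon bases. Whether the counting used the strand is not given in the sources used here, so reads of ILK and TAF10 may not be separated.

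Among the scaffold and adaptor proteins TGFB1I1 was the only gene called without the block. TGFB1I1 encodes Hic-5, a LIM protein of the paxillin family, and had between 35 and 105 counts per sample. It was measured at 4.60, 5.25, 4.37 and 4.20 CPM in DU145KO+α2, at 3.16, 4.02, 2.93 and 2.62 in DU145KO+vector and at 3.11, 2.44, 3.81 and 2.05 in DU145KO. All 4 samples of DU145KO+α2 lay above all 8 others. Its log2 fold change was 0.69 (SE 0.20, adjusted p = 0.0381) against DU145KO and 0.54 (SE 0.19, adjusted p = 0.0886, and 0.0204 with the block) against DU145KO+vector. The call against DU145KO was lost in 6 of the 12 fits, without DU145KO replicate 2 or 4 or any 1 of the 4 samples of DU145KO+α2, with adjusted p of 0.0583 to 0.117 and values of 0.56 to 0.74. Its 40 neighbours on chromosome 16 had medians of -0.05 and -0.02. Paxillin itself had log2 fold changes of -0.05, -0.08 and -0.04 with 95% intervals between -0.27 and 0.15, and 26.8% of its exon bases overlap PXN-AS1 on the opposite strand.

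CRKL, an SH2 and SH3 adaptor that binds phosphorylated Cas and paxillin, was measured at 294, 375, 341 and 349.8 CPM in DU145KO+α2, at 247, 318, 267 and 303 in DU145KO+vector and at 271, 334, 303 and 297 in DU145KO. The groups overlapped, but in each of the 4 numbered pairs DU145KO+α2 was the higher one. The log2 fold change against DU145KO+vector was 0.26 (SE 0.10, adjusted p = 0.0996, and 0.000506 with the block), and without DU145KO+α2 replicate 1 it was 0.33 with an adjusted p of 0.0455. Against DU145KO it was 0.17 (adjusted p = 0.330, and 0.0169 with the block). Its relative CRK had -0.03, -0.03 and -0.00. LPP, a zyxin relative that binds α-actinin, had -0.20 in DU145KO+α2 and -0.24 in DU145KO+vector, each against DU145KO, with adjusted p of 0.529 and 0.527 and, with the block, of 0.0129 and 0.00699. Zyxin (ZYX) and the Cas protein BCAR1 had log2 fold changes between -0.07 and 0.05. NEDD9, with 14 to 95 counts per sample, had wide intervals, between -1.74 and 1.46 over the 3 comparisons, and each of them reached past 2-fold. The replicate number held 62.4% of the spread of NEDD9 over the 12 samples.

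The tensins, which bind β tails through a phosphotyrosine binding domain, included the largest fold changes of the 44 genes, at low levels. TNS4 (cten) lacks the actin binding region of the other tensins. It had 99, 73, 40 and 41 counts in DU145KO, 28, 18, 15 and 11 in DU145KO+α2 and 14, 4, 6 and 5 in DU145KO+vector. In CPM these were 6.55, 4.46, 2.46 and 2.40, then 1.74, 0.8995, 0.886 and 0.700, then 0.776, 0.287, 0.345 and 0.344. DU145KO lay above both transfected lines in every sample, and DU145KO+α2 lay above DU145KO+vector in each of the 4 numbered pairs. TNS4 had a log2 fold change of -3.11 (SE 0.42, adjusted p = 0.00107) in DU145KO+vector and -1.90 (SE 0.37, adjusted p = 0.00422) in DU145KO+α2 against DU145KO. Both were called in each of the 12 fits without 1 sample, with values of -3.56 to -2.76 and -2.23 to -1.54. Between DU145KO+α2 and DU145KO+vector it was 1.21 (SE 0.49, adjusted p = 0.131, and 0.00436 with the block).

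TNS1 had 6 to 37 counts per sample and was measured at 1.18, 1.20, 1.004 and 1.27 CPM in DU145KO+α2, at 0.720, 0.790, 0.345 and 0.758 in DU145KO+vector and at 1.72, 2.26, 0.922 and 1.17 in DU145KO. DU145KO+vector lay below both other lines in every sample. The log2 fold change of DU145KO+vector against DU145KO was -1.22 (SE 0.32, adjusted p = 0.0600, and 0.00687 with the block), and it passed without DU145KO replicate 3 (-1.40, adjusted p = 0.0349) or replicate 4 (-1.33, adjusted p = 0.0433). That of DU145KO+α2 against DU145KO+vector was 0.84 (SE 0.33, adjusted p = 0.121, and 0.0387 with the block). TNS3, the most abundant of the 3 tensins, had 0.11, 0.03 and -0.08 with 95% intervals between -0.27 and 0.30.

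PDLIM7 (Enigma), a PDZ-LIM protein of actin fibres, fell in DU145KO+α2 against both other lines. It was measured at 27.3, 36.6, 29.9 and 29.4 CPM in DU145KO+α2, at 39.5, 39.3, 36.4 and 36.6 in DU145KO+vector and at 44.7, 37.5, 44.9 and 40.4 in DU145KO. Replicate 2 of DU145KO+α2 lay within the range of DU145KO+vector, and all 4 samples lay below those of DU145KO. PDLIM7 had a log2 fold change of -0.44 (SE 0.09, adjusted p = 0.00684) against DU145KO, called in all 12 fits without 1 sample, and -0.30 (SE 0.09, adjusted p = 0.0481, and 0.0124 with the block) against DU145KO+vector. The latter lost its call in 9 of the 12 fits, all but those without DU145KO replicate 2 or 3 or DU145KO+α2 replicate 2, with adjusted p of 0.0530 to 0.141 and values of -0.32 to -0.24. It was also lost with the size factors of DESeq2 (adjusted p = 0.0502), with no filter on low counts (0.0633), with at least 10 counts in every sample (0.0509) and with the compared lines alone (0.0541). The 40 neighbours of PDLIM7 on chromosome 5 had a median of -0.14 against DU145KO, with 33 of them lower and 5 called lower, and of -0.03 against DU145KO+vector. Its relative PDLIM5 had 0.03, 0.00 and -0.02.

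**Figure D4:**
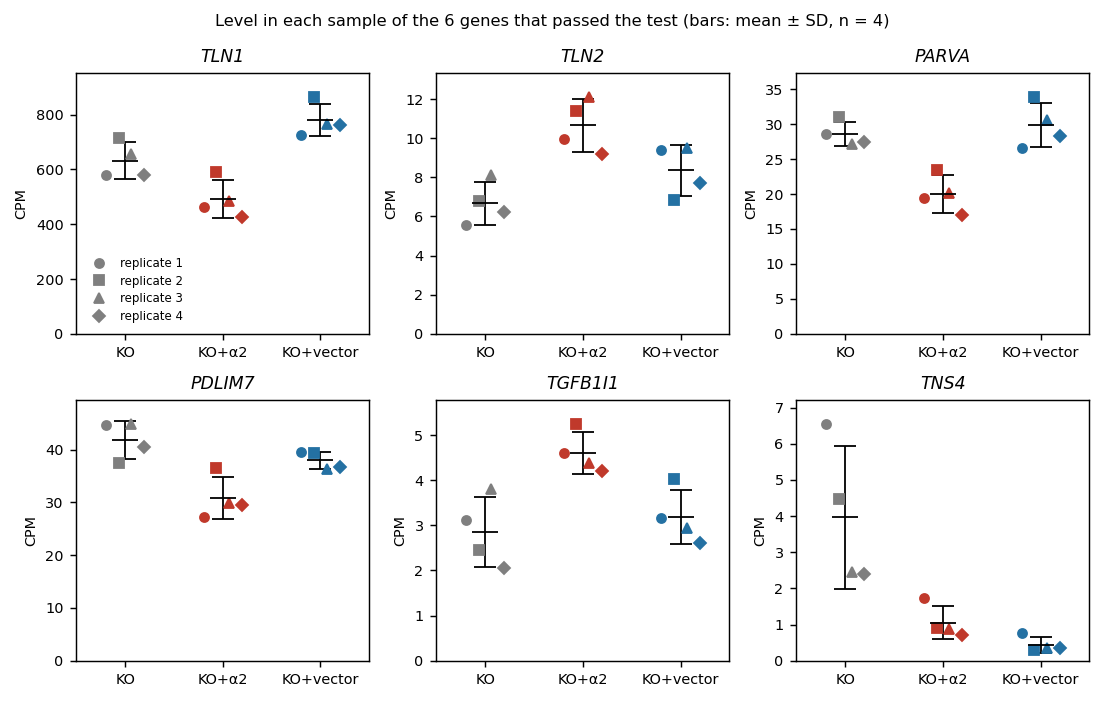
CPM of the 6 genes that passed the test in at least 1 comparison, in each sample of DU145KO, DU145KO+α2 and DU145KO+vector, with the mean and SD of 4 replicates as bars and the replicate number as symbol. DU145KO+α2 is lowest for PARVA (17.0 to 23.4) and highest for TGFB1I1 (4.20 to 5.25) in all samples, and TNS4 is highest in DU145KO (2.40 to 6.55).

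None of the 4 actin crosslinkers passed without the block. Filamin A (FLNA), which crosslinks actin and binds β tails, was measured at 480.2, 686, 565 and 501 CPM in DU145KO+α2, at 615, 782, 762 and 664 in DU145KO+vector and at 536, 643, 673 and 567 in DU145KO. The groups overlapped, whereas each numbered sample of DU145KO+α2 lay below the DU145KO+vector sample of that number. The log2 fold change was -0.34 (SE 0.12, adjusted p = 0.0748, and 0.000112 with the block), and it passed without DU145KO+α2 replicate 2 (-0.45, adjusted p = 0.0154) or DU145KO+vector replicate 1 (-0.39, adjusted p = 0.0478), and with the DESeq2 Wald test (adjusted p = 0.0441). FLNA in DU145KO+vector against DU145KO had 0.22 (adjusted p = 0.403, and 0.0135 with the block). FLNC, the filamin of muscle, had -0.08, -0.23 and -0.15, of which -0.23 for DU145KO+α2 against DU145KO passed with the block (adjusted p = 0.487 and 0.0326). The α-actinins ACTN1 and ACTN4 had log2 fold changes between -0.16 and 0.13, and 16.7% of the exon bases of ACTN4 overlap CAPN12 on the opposite strand, as 16.6% of those of VCL do with AP3M1.

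The Ena/VASP proteins, which lengthen actin filaments at adhesions, had 0 genes called by edgeR in any comparison with or without the block, and 0 by DESeq2 and limma. At an unadjusted p under 0.05 edgeR gave 1, VASP in DU145KO+α2 against DU145KO. VASP had 0.13, 0.16 and 0.02, ENAH 0.03, 0.10 and 0.06, and EVL 0.04, 0.18 and 0.14, with 95% intervals from -0.17 to 0.40 over all of these. In the module of GIT, PIX and PAK, which recruits RAC1 activity to paxillin, none of the 5 genes passed without the block. With it the GTPase activating protein GIT1 was lower in DU145KO+α2 when set against DU145KO+vector (log2 fold change -0.24, adjusted p = 0.288 and 0.0126), and its relative GIT2 was lower in DU145KO+α2 than in DU145KO (-0.14, adjusted p = 0.381 and 0.0496). ARHGEF7, which encodes β-PIX, and the kinases PAK1 and PAK2 had log2 fold changes between -0.12 and 0.09.

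RHOA, RAC1 and CDC42, the switches of actin organisation, and the RHOA effectors ROCK1 and ROCK2 were not called by edgeR in any comparison with or without the block, nor by DESeq2 or limma, and 0 of the 5 had an unadjusted p under 0.05 without the block. Their log2 fold changes lay between -0.07 and 0.11, and the 95% intervals of all 5 genes lay between -0.26 and 0.25. RHOA averaged 399.7 CPM in DU145KO+α2, 410.3 in DU145KO+vector and 420.2 in DU145KO, RAC1 350.2, 353 and 366, and CDC42 187, 185 and 181. ROCK1 was measured at 172 to 188 CPM in DU145KO+α2 and at 165 to 172 in DU145KO+vector, without overlap, with a log2 fold change of 0.11 (adjusted p = 0.331, and 0.143 with the block). These are transcript levels, and no measure of GTPase activity is among the data.

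The non-muscle myosin genes had wider intervals. MYH9 had -0.12, -0.13 and -0.01, and the regulatory light chain MYL9 had -0.13, 0.12 and 0.25, with 95% intervals from -0.45 to 0.54 over these genes. MYLK, the kinase that activates the light chain, had -0.18 in DU145KO+α2 against DU145KO (adjusted p = 0.218, and 0.0390 with the block), and -0.04 and -0.14 in the other comparisons. The caveolins CAV1 and CAV2, which coat membrane pits that exchange with adhesions, had log2 fold changes between 0.04 and 0.24 and 0 calls by edgeR with or without the block, by DESeq2 or by limma, and at an unadjusted p under 0.05 without the block.

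Much of the spread of these genes, as of all genes tested, went with the replicate number. Of the sum of squares of log2(CPM + 0.5) over the 12 samples, the replicate number held a median of 51.7% and the line 25.9% for the 44 genes, against 39.0% and 27.7% over all genes tested. There are 4 replicate numbers and 3 lines, which by itself favours a larger share for the number even without any effect. For 28 of the 44 genes (63.6%, against 58.9% of all genes) the replicate number held the larger share. It held more than 70% for 11 genes (25%, against 13.5% of all genes), with ROCK2 at 94.6%, CRK at 89.5%, ARHGEF7 at 88.2%, RHOA at 87.3% and BCAR1 at 83.4%. The line held more than 70% for 4 genes (9.09%, against 9.38% of all genes), TNS4 (83.7%), TLN1 (80.7%), PARVA (80.4%) and PDLIM7 (72.8%). The labels do not say what the number stands for.

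**Figure D5:**
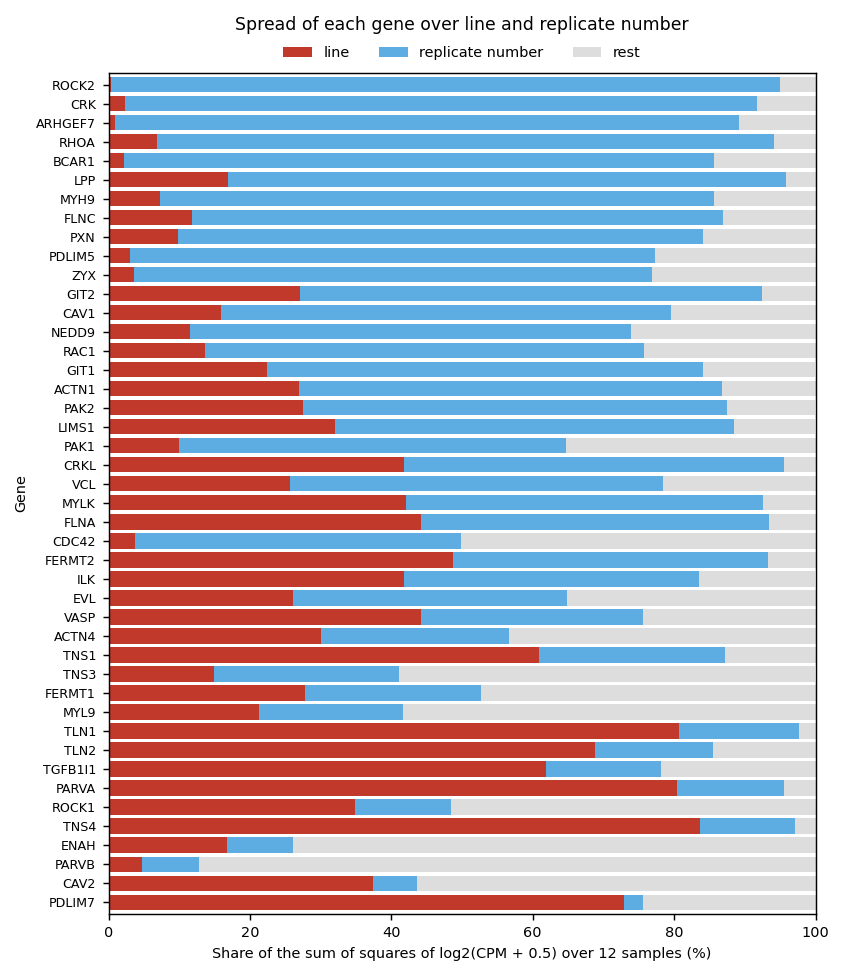
Share in percent of the sum of squares of log2(CPM + 0.5) over 12 samples that went with the line, with the replicate number and with neither, for each of the 44 genes, ordered by the share of the replicate number. ROCK2 at the top has 94.6% with the replicate number, and PDLIM7 at the bottom has 72.8% with the line.

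ROCK2 was measured at 75.4 to 77.6 CPM in the 3 samples numbered 1, at 90.9 to 95.7 in those numbered 2, at 97.7 to 104 in those numbered 3 and at 89.0 to 95.8 in those numbered 4. The samples numbered 1 were thus the lowest in each line. LPP stood at 255 to 301 and 258 to 276 CPM in numbers 1 and 4 and at 316 to 404 and 345 to 412 in numbers 2 and 3. FLNC and MYH9 had the same division, with MYH9 at 807 to 895 and 773 to 927 CPM in numbers 1 and 4 and at 1053 to 1207 and 1046 to 1299 in numbers 2 and 3. CAV1 was highest in number 4 in each line, at 106 to 122 CPM against at most 95.2 in all other samples. RHOA was lowest in number 3, at 357 to 376 CPM against 378 to 449.7 in the others.

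Other genes of the same structures were taken from lists drawn up with earlier results of these data known. Of a further list of 41 focal adhesion genes, 32 were tested. In DU145KO+α2, 2 were higher and 3 lower against DU145KO+vector (5 and 7 with the block) and 2 higher and 1 lower against DU145KO (3 and 2 with the block). In DU145KO+vector, 2 were higher and 1 lower against DU145KO (6 and 5 with the block). These are 15.6%, 9.38% and 9.38% of the 32 genes, against 11.9%, 8.17% and 2.34% of all genes tested. With the block 26.5%, 22.3% and 13.4% of all genes were called in these comparisons. The vinculin binding protein SORBS3 (vinexin) was higher in DU145KO+α2 at 87.3 CPM against 61.1 in DU145KO+vector (log2 fold change 0.52, SE 0.08, adjusted p = 0.000450) and 69.8 in DU145KO (0.32, SE 0.08, adjusted p = 0.0148). The 40 nearest tested genes of SORBS3 on chromosome 8 had medians of 0.49 and 0.30 in these comparisons, close to the values of SORBS3 itself, and their part in them was not tested. Against DU145KO+vector, the LIM protein TRIP6 was lower in DU145KO+α2 (-0.39, SE 0.07, adjusted p = 0.00155). TRIP6 was also higher in DU145KO+vector than in DU145KO (0.39, SE 0.07, adjusted p = 0.00656). Its mean was 54.0 CPM in DU145KO+α2, 70.9 in DU145KO+vector and 53.9 in DU145KO. The tensin TNS2 fell below DU145KO in both transfected lines, in DU145KO+α2 (-0.69, SE 0.13, adjusted p = 0.00393) and with the empty vector (-0.61, SE 0.13, adjusted p = 0.0238), at 19.0 and 20.1 CPM against 30.7. SDPR, a protein of caveolae, was higher than in DU145KO in both transfected lines (0.52 and 0.70, adjusted p = 0.0410 and 0.0224). Of the 12 fits without 1 sample, SDPR kept its call in 4 for DU145KO+α2 and 7 for DU145KO+vector, and TNS2 in 12 and 7.

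Of a list of 44 further actin and myosin genes, 43 were tested. In DU145KO+α2, 2 were higher and 5 lower against DU145KO+vector (5 and 7 with the block) and 2 higher and 3 lower against DU145KO (4 and 5 with the block). These are 16.3% and 11.6% of the 43 genes, against 11.9% and 8.17% of all genes (26.5% and 22.3% with the block). Between DU145KO+vector and DU145KO edgeR called 0 of them (3 higher and 3 lower with the block, and 3 and 4 at an unadjusted p under 0.05), DESeq2 1 and limma 0. Of all genes edgeR called 2.34% there, and 13.4% with the block. Tropomyosin 1 (TPM1), which winds along actin filaments, was higher in DU145KO+α2 than in both other lines, at 94.8 CPM against 69.8 in DU145KO+vector (0.44, SE 0.09, adjusted p = 0.00313) and 66.6 in DU145KO (0.51, SE 0.09, adjusted p = 0.00153). Tropomyosin 2 (TPM2) and the actin severing protein gelsolin (GSN) were lower than in DU145KO+vector (-0.66 and -0.71, adjusted p = 0.00895 and 0.00243), and the actin binding protein caldesmon (CALD1) was higher (0.42, adjusted p = 0.0173). The call of CALD1 was kept in 9 of the 12 fits without 1 sample. TPM2 is one of the 40 neighbours of TLN1 described above, whose median was -0.58, and the 40 neighbours of GSN, elsewhere on chromosome 9, had a median of -0.28 with 35 of them lower. The formin DIAPH1, a RHOA effector that builds actin filaments, was lower than in DU145KO (-0.49, SE 0.07, adjusted p = 0.000380), at 151 against 213 CPM.

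Of 16 genes of transcription that responds to actin, all tested, 2 were higher and 1 lower in DU145KO+α2 against DU145KO+vector (5 and 2 with the block), and 1 was higher and 0 lower against DU145KO (3 and 1 with the block, and 3 and 0 at an unadjusted p under 0.05). These are 18.8% and 6.25% of the 16 genes, against 11.9% and 8.17% of all genes (26.5% and 22.3% with the block). Between DU145KO+vector and DU145KO edgeR called 0 of them (2 higher and 0 lower with the block, and 2 and 1 at an unadjusted p under 0.05), and DESeq2 and limma 1 each. The share of all genes called by edgeR there was 2.34%, and 13.4% with the block. Serum response factor (SRF), which binds CArG boxes, had log2 fold changes of 0.25 (SE 0.08, adjusted p = 0.0496) and 0.28 (SE 0.08, adjusted p = 0.0419), and it kept its call in 2 and 4 of the 12 fits without 1 sample. YAP1, a partner of TEAD factors, was higher than in DU145KO+vector (0.27, SE 0.07, adjusted p = 0.0193), and CTGF, a common YAP1 target, was lower (-0.67, SE 0.17, adjusted p = 0.0194). The calls of YAP1 and CTGF were kept in 9 and 10 of the 12 fits. The median log2 fold change was -0.05, -0.04 and 0.16 for the 3 lists between DU145KO+α2 and DU145KO+vector, against -0.0062 over all genes.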

How the data were processed

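RNA from 12 samples of 3 lines was sequenced with a stranded mRNA kit and single-end reads. Per the labels, the authors' processing named bcl2fastq 1.8.4, TopHat2 2.1.0, Subread 1.5.0, edgeR and limma, with hg38 as genome. The authors deposited read counts per gene without normalization, and the authors deposited RPKM values, in which the counts of a sample share 1 divisor and those of a gene another, its length (checked on 10432 genes). The authors' factors differed by at most 1.78% from TMM factors computed here. Strand use in counting and the lane of each sample are not given in the sources used here. All columns were mapped to samples (0 left out), and line and replicate number come from the sample titles.

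The tests ran in edgeR 4.0.16 under R 4.3.3. The filterByExpr function, at a minimum count of 10, kept 14732 of the 26485 genes. No count was found for 5446 genes. Line was the factor in one model of all 12 samples, with TMM normalization, robust quasi-likelihood F-tests (two-sided) and Benjamini-Hochberg adjustment over all genes tested. A gene was called at an adjusted p under 0.05. CPM were TMM-normalized. RPKM served for levels between genes, with no test. No pair of replicates agreed within sampling noise (chi-square per degree of freedom 6.98 to 23.7), and none was counted as a duplicate. Samples with the same replicate number in the labels deviated together from the line means over 14732 genes. Their correlations were 0.135 to 0.554 in all 12 pairs, with a mean of 0.378, so the numbers were taken to pair the samples. Different numbers gave -0.290 to 0.149, which overlaps with that range, and a mean of -0.126. Deviations from a line mean cancel out within the line, so this second mean follows from the first and is no separate evidence. The reads have no molecular identifiers, so detection floors reflect counting error alone.

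The 44 genes, the other lists and the tests were chosen with earlier results of these data known, among them regional differences between the lines on chromosome 9. All 44 genes are named by role, with every sample's value for those called in any comparison, and from each other list up to 4 called genes with the largest change per comparison, of which 1 gene is not reported here. The genes called with the block alone whose samples are also listed (FERMT2, CRKL, TNS1 and FLNA) were chosen after their values were seen. Neighbours are the 20 nearest tested genes on each side, or fewer near the end of a chromosome. Exon overlap was computed from the GENCODE v44 basic annotation.

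Alternatives were voom with limma 3.58.1, the Wald test of DESeq2 1.42.0, its size factors or plain library size for scaling, glmTreat against a fold change of 1.5, a fold change above 2, no filter, at least 10 counts in every sample, the compared lines alone, omission of each sample in turn, and a block for the replicate number. Scripts were tested on simulated data. Protein, phosphorylation, migration and invasion were not analysed here.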

Additional observations from a re-analysis of the deposited data

Results flagged for a closer look

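Each of the 44 genes was examined in each line for a sample far from the other 3, by the gap to the nearest sample over the range of the group. Of 132 such groups 7 exceeded Dixon's 95% critical value, where chance gives about 6.6. In DU145KO+vector the lowest TNS1 sample was replicate 3 (0.345 CPM, others 0.720 to 0.790, ratio 0.844) and the highest TNS4 sample was replicate 1 (0.776 CPM, others 0.287 to 0.345, ratio 0.881). ROCK2 was lowest in DU145KO+vector replicate 1 (77.2 CPM, others 95.7 to 97.7, ratio 0.902), the replicate number that was lowest for ROCK2 in all 3 lines. The kinase MYLK was highest in DU145KO+vector replicate 2 (38.1 CPM, others 32.6 to 33.5, ratio 0.838). CDC42 was lowest in DU145KO+vector replicate 3 (179 CPM, others 187 to 188, ratio 0.853) and highest in DU145KO+α2 replicate 1 (216 CPM, others 174 to 181, ratio 0.833). ACTN4 was highest in DU145KO+α2 replicate 2 (566 CPM, others 443 to 453.5, ratio 0.910). No call of TNS4 against DU145KO was lost without DU145KO+vector replicate 1.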

How the results depend on the processing

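No log2 fold change of the 44 genes that was called changed its sign under any alternative. With the replicate block, in the order DU145KO+α2 against DU145KO+vector, DU145KO+α2 against DU145KO and DU145KO+vector against DU145KO, the counts were 5, 4 and 4 higher and 5, 8 and 3 lower, against 0, 2 and 0 higher and 3, 4 and 1 lower without it. The block added 19 calls over the 132 gene comparisons, lost none and changed no other. Against a fold change of 1.5 (glmTreat), and likewise with a fold change above 2, 0 genes remained lower against DU145KO+vector, and 0 were higher and 1 (TNS4) lower in DU145KO+α2 against DU145KO. With the compared lines alone 1 gene was higher in DU145KO+α2 than in DU145KO, and TLN1 and TGFB1I1 lost their calls there. The DESeq2 Wald test gave 2 lower genes in DU145KO+vector against DU145KO (TNS1 and TNS4), and at least 10 counts in every sample gave 0, since TNS1 and TNS4 were then not tested. Leaving out 1 sample at a time gave, in the same order, 0 to 1, 1 to 2 and 0 to 0 higher and 2 to 4, 3 to 4 and 1 to 2 lower over 12 fits each. With voom and limma and with library size in place of TMM, all 132 gene comparisons kept direction and call.

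The 95% intervals were widest for NEDD9, TNS4 and TNS1, the 3 of the 44 genes with the lowest levels per length, and the part of depth in this was not tested. TNS4 and TNS1 had fewer than 10 counts in some samples of DU145KO+vector. The lines differ in transfection and selection as well as in α2 integrin, and each line is 1 population of cells, so that the effect of the construct and of the population cannot be told apart. The labels do not give what the replicate number stands for.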
